A study of Mus musculus with 26 samples.

Results

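Mettl3 knockdown was compared with scramble control at 8 h in mouse J1 embryonic stem cells, on 4 of the 26 arrays of the series. The arrays were chosen by their titles, which name the knockdown or the scramble control, the time and the replicate, and each group held 2 arrays. J1 is an established mouse embryonic stem cell line, here grown in serum with leukaemia inhibitory factor on irradiated mouse embryonic fibroblasts, so that RNA of these feeder cells may be present in every group. The other groups set beside them were Mettl3 knockdown and scramble at 0 h and 4 h, Mettl14 knockdown at 8 h, and a repeat set at 0 h with a scramble control of its own, again with 2 arrays a group. The labels disagree on the time of replicate 2 in that control. Its description names 4 h, but the array was grouped by its title, which reads 0 h. Lentiviral short hairpins and transfected small interfering RNAs both appear in the protocols as the means of knockdown, without a statement of which arrays had which, and no agent is named for the hours of incubation. The treatment field of the scramble arrays reads wild type. The titles call the arrays of a group biological replicates, but nothing says whether they came from separate cultures, so p-values here reflect no more than the spread between single arrays.

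Messenger RNA carries N6-methyladenosine (m6A), which is written by a complex with METTL3 as its catalytic subunit and METTL14 as the partner that binds the RNA substrate. WTAP, VIRMA, RBM15B and CBLL1 are further subunits that place the core on its targets. Proteins of the YTH and IGF2BP families read the mark, which is known in embryonic stem cells for its link to the decay of transcripts of pluripotency and lineage regulators. The question addressed here is how transcript levels stood at 8 h in cells with less Mettl3.

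The labels give a pair of small interfering RNA target sequences in Mettl3, a gene on chromosome 14. They are shown as given there, and whether the arrays compared here had these small interfering RNAs is not stated. Capitals mark the bases that pair with the seed of the guide strand, its bases 2 to 8.
Mettl3 siRNA target 1: ggactgcgatgTGATTGTa
Mettl3 siRNA target 2: gacgaattatcAATAAGCa

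Mettl3 is measured by 1 probe set, which the platform's table assigns to Tox4 as well. This Mettl3/Tox4 probe set had log2 signals of 8.04 and 8.02 in Mettl3 knockdown at 8 h, against 10.65 and 10.71 in scramble. The knockdown arrays lay far below the scramble arrays, at 16.0% of the scramble level, a log2 change of -2.65 ± 0.10 (± is limma's standard error throughout; adjusted p = 2.09e-09). A probe set of Tox4 alone had 9.53 and 9.54 in knockdown and 9.65 and 9.68 in scramble, a change of -0.13 ± 0.06 that did not pass (adjusted p = 0.141). Mettl14 stood at 8.93 and 8.94 in Mettl3 knockdown and at 9.14 and 9.12 in scramble, a change of -0.20 ± 0.13 that did not pass either (adjusted p = 0.262). The shared probe set differed by -1.89 at 0 h, -2.65 at 4 h and -2.65 at 8 h, and the effect at 8 h was lower than that at 0 h by 0.75 ± 0.14 on the log2 scale (adjusted p = 0.0138).

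Replicates of the groups compared correlated across probe sets at r = 0.9883 in Mettl3 knockdown and r = 0.9887 in scramble. The number of arrays limits the precision. Of 5 tested stem cell markers (Pou5f1, Sox2, Nanog, Zfp42 and Esrrb), none was higher and 4 were lower in knockdown. Their summed linear signal with Dppa5a was 6841 to 6887 in knockdown and 10923 to 11532 in scramble. Nanog weighs most in this sum, with mean log2 signals of 11.95 in knockdown and 12.83 in scramble. The log2 changes were -0.88 for Nanog, -0.83 for Esrrb, -0.49 for Zfp42 and -0.28 for both Sox2 and Pou5f1. Of 5 tested defining fibroblast markers (Col1a1, Col1a2, Col3a1, Thy1 and Pdgfrb), 1 was higher and none was lower. Lum, Dcn and Postn, further fibroblast markers, were among the dim genes left out of the test. The summed signal of the tested markers together with Lum, Dcn and Postn was 937 to 1020 in knockdown and 921 to 1020 in scramble.

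At 8 h, 3514 of 14788 tested features were higher in Mettl3 knockdown than in scramble (23.8%) and 2821 were lower (19.1%) at an adjusted p under 0.05. The call thus fell on 42.8% of all features, and most called differences were small, with a median absolute log2 difference of 0.39. A difference of at least 2-fold was found for 395 features that were higher and 71 that were lower. The strongest changes were mostly rises, with 37 features at least 4-fold higher and 5 at least 4-fold lower. The arrays of the groups did not overlap for 34.6% of features with knockdown above scramble and for 35.0% with knockdown below it. The median of all features was -0.01. Fewer cells of a type and less RNA per cell cannot be told apart in such bulk samples.

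The largest rise was in H2-M2, a class Ib histocompatibility gene. It had log2 signals of 8.71 and 8.48 in knockdown, against 5.56 and 5.28 in scramble. Both knockdown arrays were far above both scramble arrays (log2 change 3.17 ± 0.09, adjusted p = 2.69e-10). Sema6a, which encodes a transmembrane semaphorin of axon guidance, had 9.45 and 9.58 in knockdown and 6.65 and 6.37 in scramble (3.01 ± 0.09). Fgf5, the growth factor ligand that marks primed epiblast, had 8.31 and 8.54 in knockdown and 5.73 and 5.39 in scramble (2.86 ± 0.12, adjusted p = 4.72e-09). The groups did not overlap in any of these genes, and the gap was several times the distance between replicates. In scramble, H2-M2, Fgf5 and Cysltr1 had mean signals below 6.07, the lowest mean over the 18 time course arrays of any gene tested. They thus passed the filter on dim genes through the groups in which they were high. The files used here hold no detection call, so the size of a change against such a dim signal is uncertain. Thbs1, which encodes the matrix glycoprotein thrombospondin 1, rose to 11.07 and 11.04 in knockdown, against 8.40 and 8.18 in scramble (2.77 ± 0.09). The other genes among the 12 largest rises changed by 2.50 to 2.87. They were Pof1b, an actin-binding epithelial protein, Cysltr1, a leukotriene receptor, Fndc3c1, Anxa3, a membrane-binding annexin, Colec12, a scavenger receptor with a collagen-like stalk, Galnt3, an enzyme that starts O-glycosylation, Sema3c, a secreted semaphorin, and Cnn1, the smooth muscle calponin. Fndc3c1 had the smallest adjusted p of all features (2.32e-11), with 10.46 and 10.36 in knockdown and 7.63 and 7.66 in scramble.

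Below the knockdown target itself, the deepest falls were in Zscan4b and Cubn. Zscan4b, a zinc finger gene of the transient two-cell-like state of embryonic stem cells, had 7.12 and 6.77 in knockdown and 9.57 and 9.13 in scramble, or 18.9% of scramble (-2.41 ± 0.25, adjusted p = 8.99e-06). Cubn, which encodes the endocytic receptor cubilin, had 6.25 and 6.07 in knockdown and 8.46 and 8.48 in scramble (-2.31 ± 0.11, adjusted p = 7.47e-09). Ceacam1, a cell adhesion molecule of the immunoglobulin family, had 9.26 and 9.0 in knockdown and 11.21 and 11.09 in scramble, or 24.6% of scramble (-2.02 ± 0.09). All 3 genes had knockdown arrays that lay wholly below the scramble arrays. The others of the 12 largest falls were Zscan4e, Zscan4c, Klk1, a tissue kallikrein, Srgn, a granule proteoglycan, Slc15a1, a peptide transporter, and the germline genes Sohlh2, Tex14 and Morc1, at -2.20 to -1.56. Srgn and Klk1 had mean signals under the same 6.07 in knockdown. Klk1 had the widest spread between knockdown arrays of these 12, with 6.25 and 5.35 in knockdown and 7.45 and 7.99 in scramble.

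**Figure D1:**
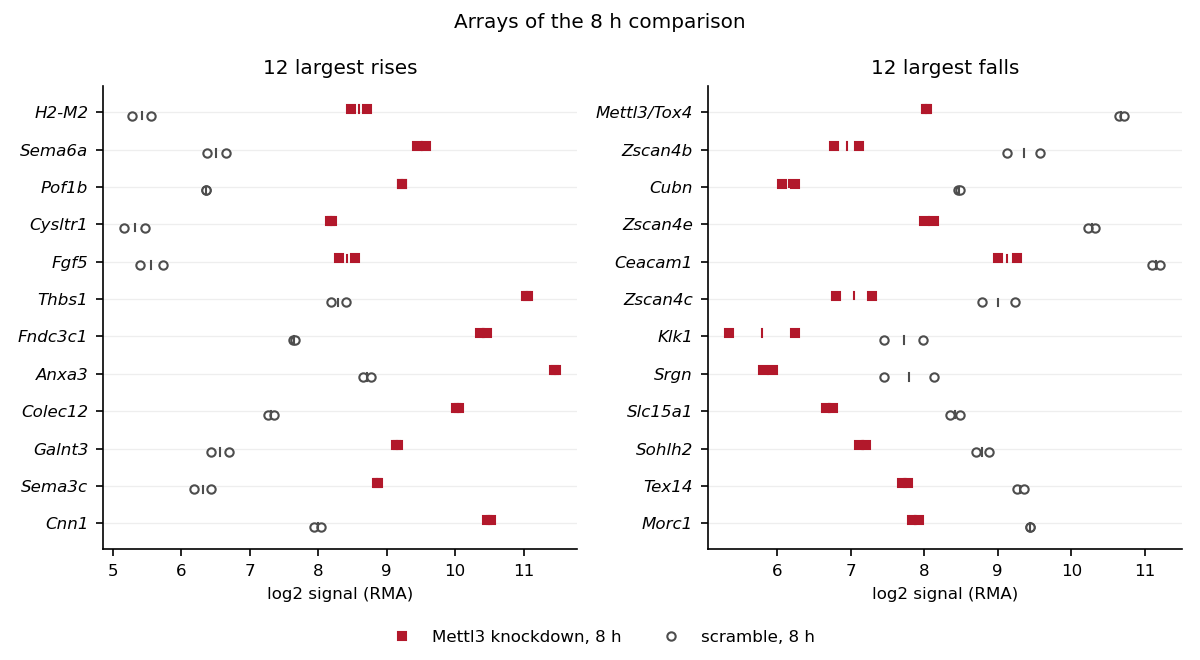
Log2 signal (horizontal axis) in each array for the 12 largest rises and the 12 largest falls at 8 h. Filled squares are the Mettl3 knockdown arrays, open circles the scramble arrays, and short vertical lines the group means. The groups do not overlap in any of the 24 rows, and H2-M2 and Mettl3/Tox4 have the widest gaps between groups among the rises and the falls.

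Among the writers of m6A, Wtap, the subunit that places the core in nuclear speckles, rose. It had 9.13 and 9.12 in knockdown and 8.42 and 8.41 in scramble, a 1.64-fold rise (0.71 ± 0.06, adjusted p = 1.85e-06). At 0 h its knockdown effect was -0.03, and the effect at 8 h was higher by 0.74 ± 0.09 (adjusted p = 0.00124). In scramble Wtap stood 1.04 lower at 8 h than at 0 h on the log2 scale, and in knockdown it was lower by 0.30, so that in these values the gap at 8 h came with a smaller drop in knockdown cells. Cbll1, a ring finger subunit of the complex, rose by 0.59 ± 0.08 (adjusted p = 6.09e-05). Of 9 tested writers, 4 were higher (44.4%, against 23.8% of all features) and 1, the Mettl3 probe set, was lower. After another quantile normalization 3 writers were higher, and Rbm15b lost its call (adjusted p = 0.0533). The call of Rbm15b also depended on single arrays, at 0.27 without scramble replicate 1 or replicate 2 and 0.22 without knockdown replicate 2. Virma lost its call with only the compared arrays in the fit (adjusted p = 0.0616). Of 9 tested erasers and readers, 3 were higher (33.3%, against 23.8% of all features) and none was lower. Igf2bp3, a reader that stabilises bound transcripts, had 11.08 and 11.05 in knockdown and 10.0 and 9.98 in scramble (1.07 ± 0.05, adjusted p = 5.33e-09). Alkbh5, a demethylase that removes the mark, rose by 0.49 ± 0.06, and Ythdc1, the nuclear reader, by 0.33 ± 0.04.

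The gene lists below were set beside the shares of all features, 23.8% higher and 19.1% lower, and the median of all features, -0.01. The pluripotency list held 28 lower members and 3 higher ones of 37 tested (75.7% lower), with a median of -0.37. Nanog, a core transcription factor of the pluripotent state, had 11.96 and 11.94 in knockdown and 12.86 and 12.80 in scramble, or 54.3% of scramble (-0.88 ± 0.05, adjusted p = 3.55e-08). Esrrb, an orphan nuclear receptor of the naive state, had 7.48 and 7.43 in knockdown and 8.29 and 8.27 in scramble (-0.83 ± 0.08). Stat3, which carries the signal of leukaemia inhibitory factor, had 10.06 and 9.97 in knockdown and 11.41 and 11.34 in scramble, or 38.9% of scramble (-1.36 ± 0.05, adjusted p = 3.46e-09). The groups lay well apart in all 3 genes. Tcl1, a coactivator of the Akt kinase, fell by 1.11 ± 0.06, and Tet1, an enzyme that oxidises methylated cytosine, by 0.68 ± 0.04. Lefty2, an inhibitor of Nodal, went the other way with a rise of 1.49 ± 0.10.

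The founding factors of the network differed less. Pou5f1, which encodes Oct4, had 8.23 and 8.41 in knockdown and 8.60 and 8.59 in scramble, a change of -0.28 ± 0.11 that did not pass (adjusted p = 0.0696, with 0.0327 to 0.346 over the alternatives). Sox2 had 9.60 and 9.46 in knockdown and 9.96 and 9.65 in scramble (-0.28 ± 0.10, adjusted p = 0.0341). The Sox2 scramble arrays lay further apart than one of them did from the knockdown arrays, and without scramble replicate 1 the change was -0.12 (adjusted p = 0.329), without knockdown replicate 2 it was -0.20 (adjusted p = 0.198). Klf4, a naive-state zinc finger factor, had 7.27 and 7.56 in knockdown and 7.84 and 7.73 in scramble (-0.37 ± 0.10, adjusted p = 0.00921). Its call was lost without scramble replicate 1 (-0.31, adjusted p = 0.066) and without knockdown replicate 1 (-0.23, adjusted p = 0.113). Myc did not pass, at 8.33 and 7.89 in knockdown and 8.58 and 8.16 in scramble (-0.26 ± 0.14, adjusted p = 0.152). It passed without knockdown replicate 1 (-0.48, adjusted p = 0.0152), without scramble replicate 2 (-0.47, adjusted p = 0.0194) and after another quantile normalization (-0.33, adjusted p = 0.0442).

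Genes of the primed epiblast, the state that follows the naive one, were mostly higher, with 11 of 14 tested members higher, 1 lower and a median of 0.42. Pim2, a survival kinase, rose by 1.48 ± 0.07, with 9.88 and 9.90 in knockdown and 8.38 and 8.44 in scramble. Cdh2, the neural cadherin, rose by 1.33 ± 0.06 and Pou3f1, the Oct6 factor, by 1.06 ± 0.09, while the DNA methyltransferase Dnmt3a fell by 0.54 ± 0.06. The counts of the neural, mesoderm and endoderm lists are set beside the shares of all features, 23.8% higher and 19.1% lower. They stood near or below these shares, so they are no result about the lineages. Of 18 neural genes 5 were higher (27.8%) and 4 lower (22.2%), with a median of 0.05. Among the higher ones were Nes, an intermediate filament of progenitors, and Nefl, a neurofilament (2.15 ± 0.08). Nes had 9.84 and 9.87 in knockdown and 7.31 and 7.43 in scramble, a 5.60-fold rise (2.49 ± 0.07). Of 21 mesoderm and primitive streak genes 3 were higher and 1 lower (median 0.06), with rises of the ligand Wnt3 (1.07 ± 0.09) and the T-box factor Eomes (0.86 ± 0.11). Of 21 endoderm genes 5 were higher and 3 lower (median -0.10), with the endocytic receptor Lrp2 up (1.36 ± 0.05) and its binding partner Cubn among the deepest falls. Imprinted genes were higher in 13 of 26 and lower in 2 (median 0.21), with Plagl1, a zinc finger factor, at 1.22 ± 0.07.

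Simple keratins and junction genes had a higher median than any of the other lineage lists, with 19 of 26 tested members higher (73.1%), 2 lower and a median of 0.68. Krt8, a simple epithelial keratin, had 12.72 and 12.69 in knockdown and 10.58 and 10.62 in scramble, a 4.30-fold rise (2.11 ± 0.05, adjusted p = 6.55e-11). Krt18, its filament partner, had 11.47 and 11.47 in knockdown and 9.32 and 9.38 in scramble (2.12 ± 0.05). Dsp, which encodes desmoplakin of desmosomes, had 10.31 and 10.27 in knockdown and 7.81 and 7.91 in scramble, a 5.40-fold rise (2.43 ± 0.09). Replicates of these 3 genes lay close together, far from the other group. The tight junction genes Cldn6 and Cldn4 rose by 1.94 ± 0.05 and 1.72 ± 0.07. The trophoblast list, which shares the keratins, had 13 of 20 members higher and 1 lower (median 0.39), and Id2, an inhibitor of helix-loop-helix factors, rose by 1.33 ± 0.06 in it. Probes of keratin genes may share sequence with related copies, which was not tested.

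Two-cell-like and germline genes were lower. Of 10 tested two-cell-like genes 7 were lower and 1 was higher (median -0.87), and of 22 germline genes 16 were lower and none higher (median -0.57). Zscan4e had 8.14 and 8.00 in knockdown and 10.32 and 10.23 in scramble (-2.20 ± 0.18, adjusted p = 1.13e-06), and Zscan4d fell by 1.52 ± 0.17. Zscan4 genes are near-identical copies whose probes can bind RNA of more than 1 member, so they are not independent measurements. Sohlh2, a transcription factor of early germ cells, had 7.12 and 7.21 in knockdown and 8.70 and 8.88 in scramble (-1.63 ± 0.09, adjusted p = 3.09e-08). Kit, the stem cell factor receptor, had 8.07 and 7.80 in knockdown and 9.30 and 9.17 in scramble (-1.30 ± 0.10). Tex14, a protein of germ cell bridges, fell by 1.56 ± 0.11 and Morc1, which silences retrotransposons in the male germline, by 1.56 ± 0.15.

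Targets of the transcription factor p53 were higher in 20 of 28 tested genes (71.4%) and lower in 1, with a median of 0.61. Plk2, a stress-induced kinase, had 8.77 and 8.68 in knockdown and 6.88 and 6.74 in scramble, a 3.78-fold rise (1.92 ± 0.10, adjusted p = 2.63e-08). Tnfrsf10b, a death receptor, had 10.81 and 10.73 in knockdown and 9.38 and 9.20 in scramble (1.48 ± 0.07). Cdkn1a, the cell cycle inhibitor p21, had 8.91 and 8.71 in knockdown and 8.00 and 7.67 in scramble (0.97 ± 0.11, adjusted p = 2.5e-05). The 2 groups did not overlap in these genes. Trp53inp1 and Phlda3 rose by 1.23 ± 0.05 and 1.09 ± 0.07. Among 23 apoptosis genes 10 were higher and none lower (median 0.25). Casp8, the initiator caspase of death receptors, had 10.96 and 10.83 in knockdown and 8.73 and 8.60 in scramble, a 4.68-fold rise (2.23 ± 0.08), while the survival genes Bcl2l1 and Mcl1 rose by 0.81 ± 0.08 and 0.52 ± 0.05.

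Of 41 tested mitosis genes 27 were lower and none was higher (65.9% lower, median -0.32), and the falls were moderate. Ndc80, of the outer kinetochore, had 10.39 and 10.38 in knockdown and 11.02 and 11.17 in scramble, or 61.0% of scramble (-0.71 ± 0.05, adjusted p = 5.57e-07). Kif11, a spindle motor, Prc1, a midzone crosslinker, and Ccna2, a cyclin, fell by 0.59 ± 0.05, 0.73 ± 0.07 and 0.57 ± 0.05. Of 47 replication and G1/S genes 17 were lower and 4 higher (median -0.09), with the cyclin Ccnd3 down by 0.63 ± 0.07 and the thymidine kinase Tk1 up by 0.56 ± 0.07. The targets of the amino acid stress factor ATF4 had 20 lower and 3 higher members of 30 (66.7% lower, median -0.43). Slc7a1, a transporter of cationic amino acids, had 8.98 and 8.93 in knockdown and 9.93 and 10.0 in scramble (-1.01 ± 0.06, adjusted p = 1.35e-07), and Asns, asparagine synthetase, fell by 0.52 ± 0.05. Of 24 genes of the unfolded protein response 8 were higher and 3 lower (median 0.14).

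The DNA methylation and Polycomb list had 13 lower and 5 higher members of 33 (median -0.06), and the lower ones included core subunits of Polycomb repressive complex 2. Eed, which binds methylated histone H3, had 10.02 and 10.03 in knockdown and 11.14 and 11.21 in scramble, or 45.1% of scramble (-1.15 ± 0.04, adjusted p = 2.56e-09). Ezh2, the methyltransferase of the complex, had 11.08 and 11.15 in knockdown and 11.83 and 11.82 in scramble (-0.71 ± 0.05). Suz12, their partner, had 11.23 and 11.25 in knockdown and 11.33 and 11.36 in scramble and did not pass (-0.10 ± 0.06, adjusted p = 0.206). Among the Tet enzymes, Tet2 fell by 1.37 ± 0.11 and Tet1 by 0.68 ± 0.04, while Tet3 rose by 1.03 ± 0.08. Of 48 mRNA decay genes 18 were lower and 11 higher (median -0.07). Exosc10, a nuclease of the nuclear exosome, fell by 0.43 ± 0.05, and Cnot6l, a deadenylase, rose by 0.48 ± 0.06. Of 60 ribosomal protein genes 5 were higher and 5 lower (median -0.03), and of 33 long-lived metabolic and cytoskeletal genes 7 were higher and 4 lower (median -0.01). With the long-lived genes set to 1 median, the ribosomal list had 0 higher and 2 lower and the long-lived list 3 higher and 1 lower. Gapdh had 13.60 and 13.60 in knockdown and 13.59 and 13.55 in scramble (0.03 ± 0.04, adjusted p = 0.604). Of 14 replication-dependent histone genes 1 was higher and none was lower. Poly(A) RNA was purified before labelling, and how far that limits the signal of the histone genes was not tested.

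Genes of the cytoskeleton that respond to the factors SRF and YAP were higher almost throughout, with 28 of 31 tested members higher (90.3%), none lower and a median of 0.90. SRF binds a short AT-rich element, the CArG box, and works with cofactors that sense the pool of free actin, while YAP responds to cell shape and tension. Cnn1 had 10.52 and 10.46 in knockdown and 7.94 and 8.04 in scramble, a 5.64-fold rise (2.50 ± 0.06, adjusted p = 6.55e-11). Tagln, a smooth muscle actin-binding protein, had 11.31 and 11.38 in knockdown and 9.21 and 9.0 in scramble, a 4.73-fold rise (2.24 ± 0.07). Cald1, which encodes caldesmon, had 9.60 and 9.70 in knockdown and 7.67 and 7.70 in scramble (1.96 ± 0.06). The groups did not overlap in any of these 3 genes. Actb itself had 12.07 and 12.25 in knockdown and 11.97 and 12.00 in scramble and did not pass (0.17 ± 0.08, adjusted p = 0.104), except without Mettl3 knockdown replicate 1 (adjusted p = 0.0454) or with trend and robust priors (adjusted p = 0.0442). Fibroblasts also express many of these genes, and of the broader feeder list 8 of 22 were higher and 1 lower (median 0.14), led by Tagln, Mmp2 (1.68 ± 0.08), Fstl1 (1.17 ± 0.05), Timp2 (1.15 ± 0.09) and Acta2 (0.92 ± 0.08). The summed signal of the defining fibroblast markers, with the dim Lum, Dcn and Postn included, was 937 to 1020 in knockdown and 921 to 1020 in scramble. Of the 5 tested, Col1a1 was higher (0.37, adjusted p = 0.00613) while the other 4 did not pass. The part of feeder cells in the changes of the cytoskeletal genes was not tested. Of 10 haematopoietic and endothelial markers 3 were higher and 2 lower (median -0.09), with the receptors Flt1 and Tek up by 1.10 ± 0.09 and 1.02 ± 0.09.

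The promoters of these cytoskeletal genes are shown because they are members that moved together and the element is short enough to read. Of 26 members found in the RefSeq promoter table of build GRCm38.p6, 8 had a CArG box within 250 bases before a start site (30.8%), against 439 of 27025 genes in the table (1.62%). The pattern searched is its own reverse complement, so 1 search covers both strands, and the list holds known SRF targets, so the share describes the list and not the knockdown. All 8 genes (Acta1, Actg1, Cnn2, Fhl1, Fhl2, Myl9, Srf and Vcl) were among the 28 higher members. The box is in capitals with 20 bases on each side, 5′ to 3′ on the gene's strand, for Acta1 (chr8:123894819-123894868, minus strand), Myl9 (chr2:156775283-156775332, plus strand), Vcl (chr14:20929151-20929200, plus strand), Cnn2 (chr10:79988524-79988573, plus strand) and Srf, which has 2 boxes (chr17:46556195-46556264, minus strand).
Acta1: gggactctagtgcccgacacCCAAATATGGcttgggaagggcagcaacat
Myl9: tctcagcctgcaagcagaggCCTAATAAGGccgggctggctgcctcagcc
Vcl: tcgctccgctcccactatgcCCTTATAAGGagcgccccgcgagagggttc
Cnn2: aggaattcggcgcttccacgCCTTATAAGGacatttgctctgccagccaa
Srf: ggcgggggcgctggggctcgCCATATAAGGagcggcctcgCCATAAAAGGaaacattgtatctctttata

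Acta1, the skeletal muscle actin, had 10.37 and 10.31 in knockdown and 8.53 and 8.82 in scramble, a 3.17-fold rise (1.67 ± 0.09, adjusted p = 2.48e-08). Myl9, a regulatory myosin light chain, had 10.95 and 10.88 in knockdown and 9.18 and 9.27 in scramble (1.69 ± 0.07). Vcl, which encodes vinculin of focal adhesions, had 11.57 and 11.59 in knockdown and 10.51 and 10.58 in scramble (1.03 ± 0.05, adjusted p = 6.83e-09). The groups did not overlap in any of them. Srf itself rose less, with 11.07 and 10.90 in knockdown and 10.47 and 10.37 in scramble (0.57 ± 0.07, adjusted p = 4.1e-05).

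Ligands and receptors of several signalling pathways were among the called genes. In the insulin-like growth factor system, 10 of 17 tested members were higher and 3 lower (median 0.38). Igfbp3, a binding protein that limits the free ligand, had 11.47 and 11.38 in knockdown and 9.50 and 9.59 in scramble, a 3.68-fold rise (1.88 ± 0.08, adjusted p = 3.77e-09), and the receptor Igf1r rose by 1.00 ± 0.07. In the Wnt pathway 18 of 45 were higher and 6 lower (median 0.08), with opposite changes in proteins that act in ligand secretion. Wls, the carrier of lipid-bearing Wnt proteins, had 9.53 and 9.54 in knockdown and 7.18 and 7.22 in scramble, a 5.06-fold rise (2.34 ± 0.10), whereas Porcn, the enzyme that attaches the lipid, had 9.75 and 9.61 in knockdown and 10.64 and 10.60 in scramble (-0.94 ± 0.06). The ligand Wnt4 rose by 1.51 ± 0.10 and the receptor Fzd6 by 1.13 ± 0.08. In the Nodal, TGF-beta and BMP group 20 of 44 were higher and 4 lower (median 0.24), with the ligand Tgfb2 at 1.51 ± 0.11. Of 27 genes of FGF-ERK signalling 11 were higher and 5 lower (median 0.17), including rises of the phosphatases Dusp4 (1.04 ± 0.09) and Dusp14 (1.00 ± 0.07) and a fall of the receptor Lifr by 0.67 ± 0.07. Of 17 interferon response genes 2 were higher and 6 lower (median -0.15), and the 2 were B2m (1.04 ± 0.07) and H2-K1 (1.02 ± 0.10), both of antigen presentation.

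**Figure D2:**
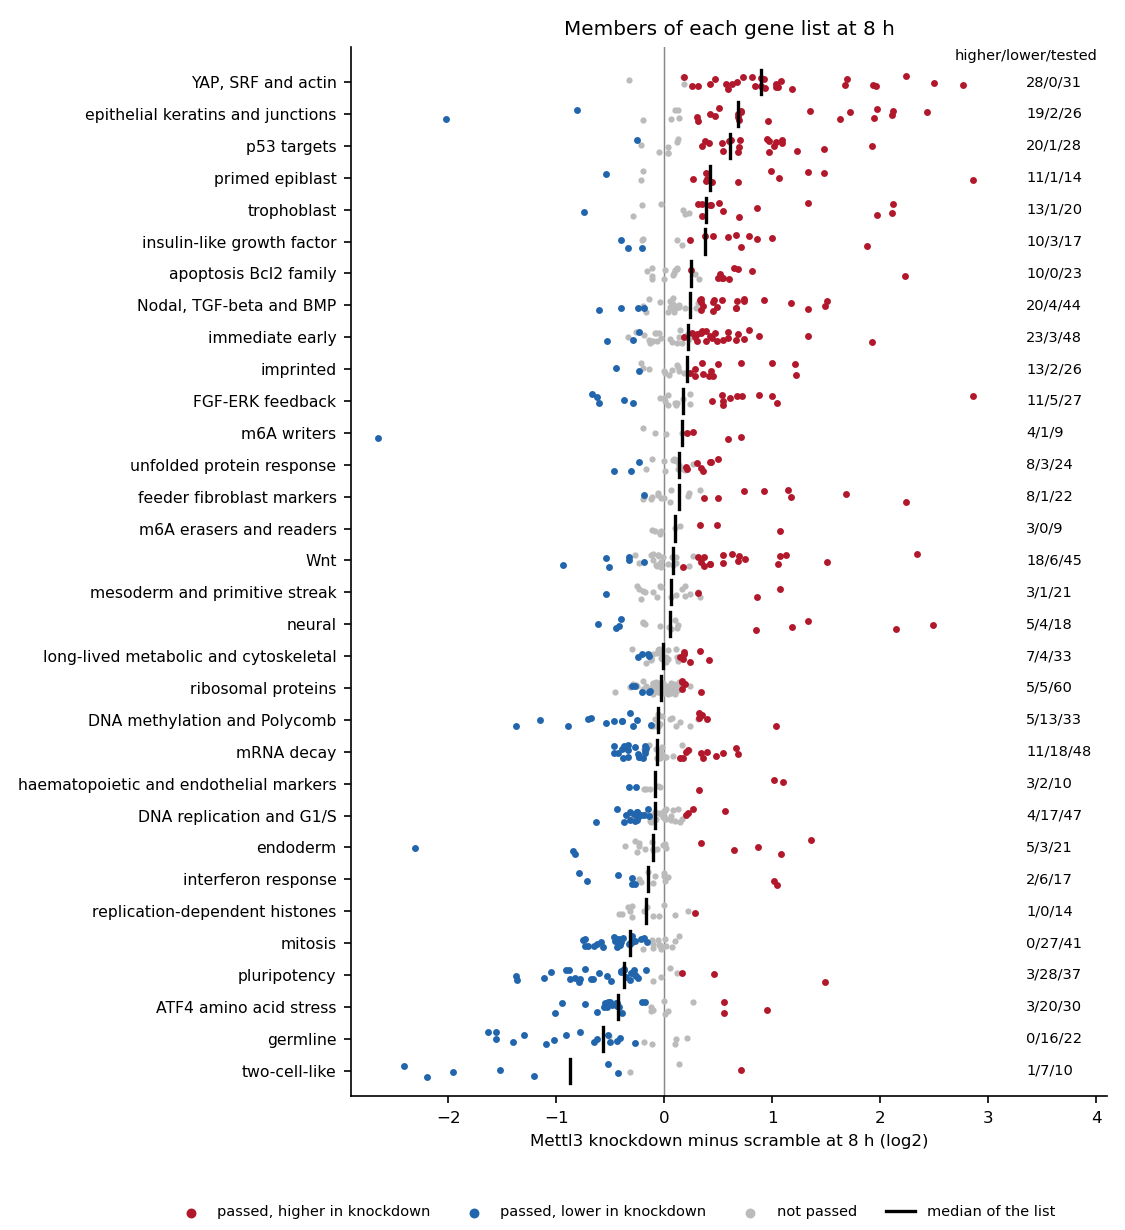
Log2 difference between Mettl3 knockdown and scramble at 8 h (horizontal axis) for each tested member of each gene list, ordered by the median of the list. Red and blue points passed the test as higher and lower, grey points did not, black bars are list medians, and the numbers at the right give higher, lower and tested members. The YAP, SRF and actin list stands at the top with a median of 0.90 and the two-cell-like list at the bottom with -0.87.

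The same knockdown was sampled at 0 h and 4 h on other arrays, where 37.8% of features were called at 0 h and 37.8% at 4 h, against 35.1% in the repeat set at 0 h. By direction, 19.3% of all features were higher at 0 h, 19.4% at 4 h and 17.8% in the repeat set. The shares called lower were 18.5% at 0 h, 18.5% at 4 h and 17.3% in the repeat set. Of the features higher at 8 h, 2282 were also higher at 0 h, which is 64.9% of the 8 h list and 80.1% of the 0 h list. Of those lower at 8 h, 1838 were lower at 0 h (65.2% of the 8 h list and 67.1% of the 0 h list). At 4 h, 2542 of the features higher at 8 h were higher too (72.3% of the 8 h list and 88.7% of the 4 h list). Opposite calls at 8 h and 0 h were made for 40 features, 23 of them higher at 8 h and lower at 0 h. In the repeat set at 0 h, 1850 of the features higher at 8 h were higher (52.6% of the 8 h list and 70.4% of the repeat list). There, 131 features higher at 8 h were called lower and 42 lower at 8 h were called higher. The labels of a scramble array in the repeat set conflict on its time, as given above. How far that affects the figures of the repeat set was not tested. Across the 14788 features, which are not independent replicates, the log2 effects at 8 h correlated with those at 0 h at Pearson's r = 0.813 and Spearman's rho = 0.686, with those at 4 h at r = 0.91 and rho = 0.83, and with those of the repeat set at r = 0.674 and rho = 0.579.

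The difference between the effect at 8 h and the effect at 0 h was tested directly. It passed for 514 features (3.48%), 363 with an effect that was higher at 8 h (2.45%) and 151 with one that was lower (1.02%). When all arrays were given the same median over the long-lived genes, the split was 97 and 99, and after another quantile normalization it was 253 and 215. The median difference over all features was 0.01. With 1 array left out the counts of higher and lower effects were 165 to 476 and 58 to 154. They were 165 and 58 without Mettl3 knockdown 8 h replicate 1, 194 and 71 without Mettl3 knockdown 0 h replicate 1, 202 and 59 without scramble 8 h replicate 2, 172 and 70 without scramble 0 h replicate 1, and 211 and 69 without scramble 0 h replicate 2.

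S1pr2, a receptor for sphingosine-1-phosphate, showed a gap that opened with time. At 0 h it had 9.46 and 9.68 in knockdown and 9.70 and 9.71 in scramble, and at 4 h 9.28 and 9.30 in knockdown and 8.82 and 8.79 in scramble. At 8 h it had 8.94 and 9.04 in knockdown and 8.03 and 7.85 in scramble. Knockdown lay slightly below scramble at 0 h and above it, without overlap, at 4 h and 8 h. The effect at 8 h exceeded that at 0 h by 1.19 ± 0.11 (adjusted p = 0.00029), and S1pr2 was lower at 8 h than at 0 h by 0.58 in knockdown and by 1.77 in scramble. Phospho2, a phosphatase gene, had effects of 0.32 at 0 h, 0.83 at 4 h and 1.43 at 8 h, with 9.01 and 8.97 in knockdown and 7.60 and 7.52 in scramble at 8 h. Its difference between 8 h and 0 h was 1.11 ± 0.09 (adjusted p = 0.000202). Nanp, a phosphatase of sialic acid synthesis, had a difference of 1.82, with 7.03 and 6.52 in knockdown and 4.90 and 4.85 in scramble at 8 h, and 7.84 and 8.15 in knockdown and 8.18 and 7.66 in scramble at 0 h (1.82 ± 0.33, adjusted p = 0.0111). The scramble values at 8 h lie under the 6.07 named above, so the size is uncertain, and with the mean of its probe sets the difference was 1.04 and did not pass (adjusted p = 0.0696). Its call was also lost without scramble 0 h replicate 1 (1.56, adjusted p = 0.0509), without Mettl3 knockdown 0 h replicate 1 (1.66, adjusted p = 0.0521) and without Mettl3 knockdown 8 h replicate 1 (1.56, adjusted p = 0.0513).

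Klf4 and Bmp4 had negative effects at 0 h that were smaller in size at 8 h. Klf4 had 8.53 and 8.43 in knockdown and 9.83 and 9.93 in scramble at 0 h, an effect of -1.40, against -1.08 at 4 h and -0.37 at 8 h, and the difference between 8 h and 0 h was 1.03 ± 0.14 (adjusted p = 0.00263). Bmp4, a ligand of the BMP pathway, had 9.94 and 10.06 in knockdown and 11.28 and 11.27 in scramble at 0 h. At 8 h it had 8.19 and 7.95 in knockdown and 8.41 and 8.12 in scramble, so the groups overlapped there, and the difference was 1.08 ± 0.19 (adjusted p = 0.00988, and 0.0554 with only the compared arrays in the fit). Herpud1, a protein of endoplasmic reticulum quality control, turned its direction, with an effect of -0.44 at 0 h and 0.50 at 8 h (difference 0.94 ± 0.09, adjusted p = 0.00029).

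The effects that were lower at 8 h than at 0 h were led by Ccn1 and Jun, both immediate early genes. Ccn1, a matricellular protein and YAP target, had 11.40 and 11.57 in knockdown and 9.48 and 9.18 in scramble at 0 h, an effect of 2.16. At 8 h it had 8.26 and 8.22 in knockdown and 7.90 and 7.74 in scramble, an effect of 0.42, and the difference was -1.74 ± 0.13 (adjusted p = 7.43e-05). Jun, a subunit of the AP-1 factor, had 9.59 and 9.71 in knockdown and 8.08 and 8.05 in scramble at 0 h. At 8 h it had 8.71 and 8.70 in knockdown and 8.63 and 8.47 in scramble, and the difference was -1.43 ± 0.13 (adjusted p = 0.00029). In both genes the groups were far apart at 0 h and close together, though not overlapping, at 8 h. Irs2 and Irs1, adaptors of the insulin receptor, differed by -1.23 ± 0.17 and -1.12 ± 0.19, the call of Irs1 being lost with only the compared arrays in the fit (adjusted p = 0.0686). Zfp608 and Phlda1 differed by -1.18 ± 0.22 and -1.01 ± 0.21, but Zfp608 lost its call without Mettl3 knockdown 8 h replicate 1 (-1.11, adjusted p = 0.0584). Phlda1 lost it without either scramble 0 h array, scramble 8 h replicate 1, Mettl3 knockdown 0 h replicate 1 or Mettl3 knockdown 8 h replicate 2 (adjusted p = 0.0516 to 0.0844).

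Over the immediate early list, 3 of 48 tested genes had an effect that was higher at 8 h than at 0 h and 10 one that was lower (median difference -0.21), against 2.45% higher and 1.02% lower of all features. The 10 were Jun, Fosl2, Ier3, Ier5l, Btg2, Dusp1, Dusp5, Tnfaip3, Ccn1 and Ccn2. At 8 h alone, 23 of the 48 were higher in knockdown than in scramble and 3 lower (median 0.22). Fosl2, another AP-1 subunit, had 7.74 and 7.99 in knockdown and 7.0 and 7.18 in scramble at 8 h (0.78 ± 0.10). In the p53 list 4 of 28 effects were higher at 8 h than at 0 h and 1 was lower, and in the pluripotency list 4 of 37 were higher and 1 was lower. These counts stand beside an overall split that changed with the scaling, as given above.

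**Figure D3:**
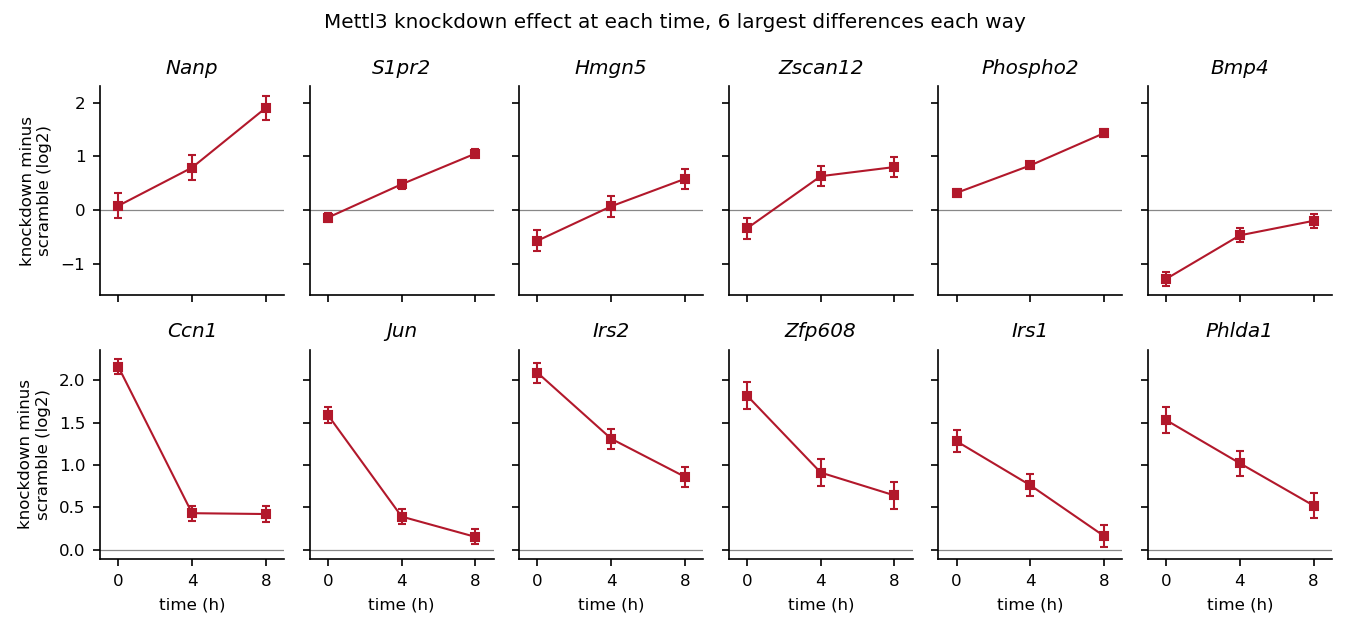
Mettl3 knockdown minus scramble (log2, vertical axis) at 0 h, 4 h and 8 h for the 6 named genes whose effect was highest at 8 h relative to 0 h (top) and the 6 whose effect was lowest (bottom), with clone-named genes left out. Squares are differences of group means and bars are limma's standard errors, with 2 arrays a group. Ccn1 is at its 8 h value by 4 h, while S1pr2 and Phospho2 rise at each step.

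**Figure D4:**
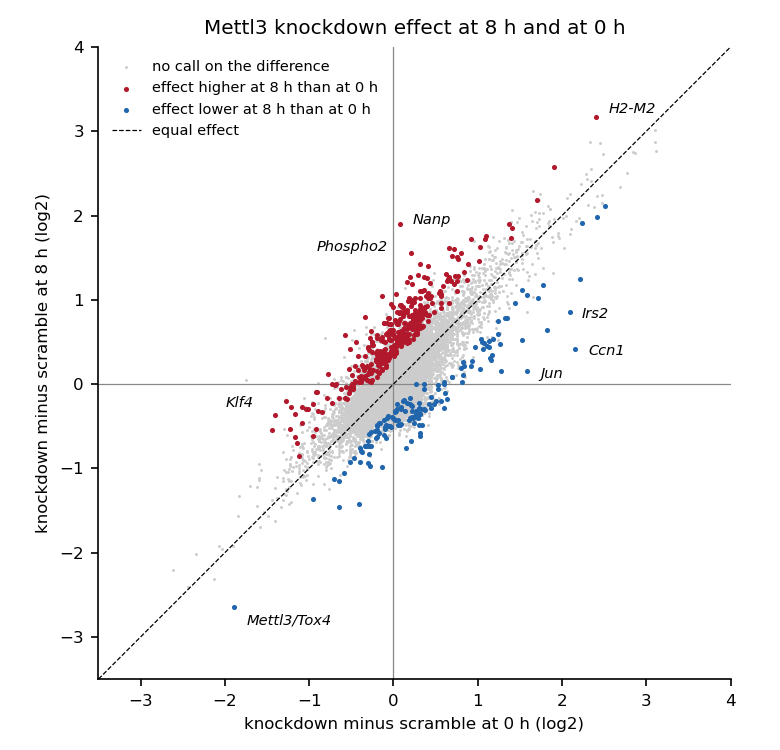
Mettl3 knockdown minus scramble at 8 h (vertical axis, log2) against the same at 0 h (horizontal axis, log2) for all 14788 features. Red and blue points passed the test of the difference as higher and lower at 8 h, and the dashed line marks equal effects. Most features lie near the line, and Nanp and Ccn1 are among the points farthest from it.

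Against 4 h, the effect at 8 h differed for 6 features, all higher (0.0406%), while 1185 features had an unadjusted p under 0.05. The named ones were Eif1a, a translation initiation factor, Traf4, a signalling adaptor, and Pskh1, a serine kinase. Traf4 had effects of 0.66 at 0 h, 1.08 at 4 h and 1.61 at 8 h, with 10.92 and 10.84 in knockdown and 9.32 and 9.22 in scramble at 8 h. Its difference between 8 h and 4 h was 0.53 ± 0.07 (adjusted p = 0.0346), and that between 8 h and 0 h was 0.95 ± 0.07 (adjusted p = 7.43e-05). Eif1a had effects of -0.05, 0.08 and 0.71 at the 3 times. The differences between 8 h and 4 h of all 3 genes lost their call when any of the other compared arrays than scramble 8 h replicate 1 was left out, which gave 0 or 1 higher feature. Without scramble 8 h replicate 1, 83 features were higher.

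Mettl14 knockdown at 8 h, measured against the same scramble arrays, was compared with Mettl3 knockdown directly. The direct contrast passed for 1211 features (8.19%), 639 higher in Mettl3 knockdown (4.32%) and 572 lower (3.87%). Against scramble, Mettl14 knockdown had 43.5% of features called, 23.8% higher and 19.8% lower. Scaling to the long-lived genes gave 465 higher and 194 lower. The counts were 203 and 274 without Mettl3 knockdown replicate 1, 390 and 300 without its replicate 2, 234 and 336 without Mettl14 knockdown replicate 1, and 679 and 369 without its replicate 2. Few differences were large, with 7 features at least 2-fold higher and 6 at least 2-fold lower. Mettl14 itself had 8.93 and 8.94 in Mettl3 knockdown and 6.39 and 6.56 in Mettl14 knockdown (2.46 ± 0.13, adjusted p = 1.15e-06). The shared Mettl3 probe set had 8.04 and 8.02 in Mettl3 knockdown and 10.24 and 10.17 in Mettl14 knockdown (-2.17 ± 0.10, adjusted p = 7.56e-07). Each knockdown thus stood out at its own target.

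Stat3 differed between the knockdowns, with 10.06 and 9.97 in Mettl3 knockdown and 11.05 and 10.98 in Mettl14 knockdown (-1.0 ± 0.05, adjusted p = 1.15e-06). Against scramble its changes were -1.36 in Mettl3 knockdown and -0.36 in Mettl14 knockdown. Apob, the apolipoprotein of lipid particles, had 7.48 and 7.46 in Mettl3 knockdown and 8.85 and 8.95 in Mettl14 knockdown (-1.43 ± 0.09, adjusted p = 4.41e-06), both above the scramble values of 6.27 and 6.38. Serpinb9b, a serine protease inhibitor, had 7.71 and 7.40 in Mettl3 knockdown and 8.88 and 9.09 in Mettl14 knockdown (-1.43 ± 0.11), the Mettl14 values lying around the scramble values of 9.03 and 8.91. Suz12 had 11.23 and 11.25 in Mettl3 knockdown and 10.05 and 10.20 in Mettl14 knockdown (1.12 ± 0.06, adjusted p = 1.15e-06), with scramble at 11.33 and 11.36. Caprin2, an RNA-binding protein, and Zcchc10, a zinc knuckle protein, were likewise lower in Mettl14 knockdown, by contrasts of 1.23 ± 0.08 and 1.22 ± 0.08. In the pluripotency list 3 of 37 members were higher in Mettl3 than in Mettl14 knockdown and 9 were lower (median -0.18), against 4.32% and 3.87% of all features. Cdh2 was higher in Mettl3 knockdown by 0.61 ± 0.06 (adjusted p = 0.000101) and Lefty2 by 0.83 ± 0.10 (adjusted p = 0.000353). With only these 4 arrays in the fit, 1 feature passed as higher and 2 as lower, and of the 12 genes with the largest contrasts only Mettl14, the Mettl3 probe set and Apob passed.

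**Figure D5:**
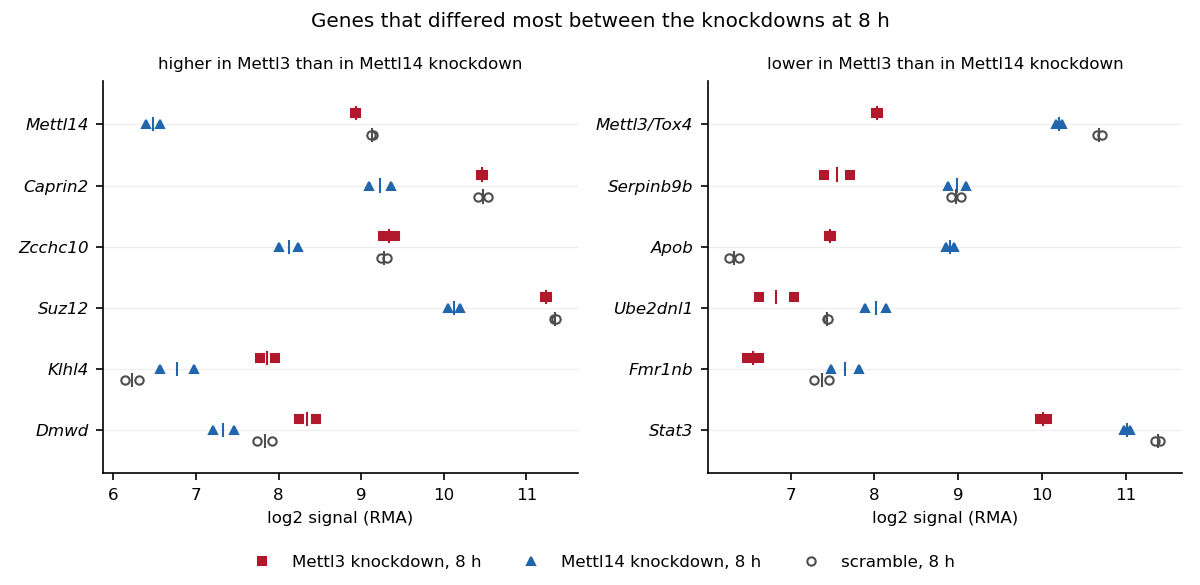
Log2 signal (horizontal axis) in each array at 8 h for the 6 genes highest and the 6 lowest in Mettl3 knockdown relative to Mettl14 knockdown. Squares are Mettl3 knockdown, triangles Mettl14 knockdown and circles scramble, with 2 arrays a group and short lines at the means. Suz12, Caprin2 and Zcchc10 stand apart in Mettl14 knockdown, and Stat3 is lowest in Mettl3 knockdown.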

How the data were processed

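The authors deposited log2 signal intensities for each probe set of the Affymetrix Mouse Gene 2.0 ST array. The submitters' processing notes name RMA and oligo, with no version. RMA corrects the background and makes the probe distributions of arrays alike, so a change shared by most transcripts is not visible. Poly(A) RNA was purified before labelling, per the labels' protocols.

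Of 41345 probe sets, 23521 had exactly 1 symbol in the platform's probe table, 1814 had several and 16010 had none. They gave 22180 genes, each taken at its probe set with the highest mean. The third with the lowest mean signal was left out, and 14787 genes were tested with probe set 17306289, listed with both Mettl3 and Tox4. The moderated tests used lmFit and eBayes of limma 3.58.1 (R 4.3.3) on the 18 time course arrays, with 9 residual degrees of freedom, and with Benjamini-Hochberg adjustment over all 14788 features at 0.05. The repeat set of 8 arrays was fitted on its own. Simulated data of this design had 200 of 14788 features changed and independent normal noise. In them, 70% of changes of 0.5 and 97% of changes of 1 on the log2 scale were recovered, with 6 false calls. In the real 8 h comparison 42.8% of features were called, so these figures may not carry over to it.

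The text names the 12 largest changes each way between the 8 h groups, the 6 largest each way in the other contrasts, up to 5 list members with the smallest adjusted p, and a fixed set of 14 genes. The largest changes were taken among called genes, with unnamed, predicted and clone-named genes (such as 1810055G02Rik) left out, and, in the 2 comparisons of single groups at 8 h, with arrays that do not overlap. Other list members named were picked after their values were seen. The comparison, the lists and the rule were chosen with earlier results of these data known. As alternatives, the filter on low signal, averaging of probe sets, trend and robust priors, array weights, a replicate block, 2 further scalings, other sets of arrays in the fit and the omission of each array were tried.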

Additional observations from a re-analysis of the deposited data

Results flagged for a closer look

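The effect of Mettl3 knockdown differed between 8 h and 0 h, by the direct test of that difference in limma at an adjusted p under 0.05, for 35 of the genes that the naming rule gives for the 8 h comparison and for this one. Traf4, given in the report, and the genes under the other observations passed the same test and are not among the 35. Among the genes of the 8 h comparison it was higher at 8 h for H2-M2 (0.77), Galnt3 (0.67), Cldn4 (0.63), Id2 (0.49) and Gata2 (0.48), for the m6A genes Wtap (0.74) and Alkbh5 (0.33), for the p53 targets Tnfrsf10b (0.71) and Trp53inp1 (0.36), and for Klf4 (1.03), Herpud1 (0.94), Eif1a (0.76) and Mcl1 (0.55), all on the log2 scale. It was lower at 8 h for Mettl3/Tox4 (-0.75), Fosl2 (-0.57), Pou3f1 (-0.54), Eed (-0.49), Gata1 (-0.48), Stat3 (-0.42) and Krt8 (-0.40), and for the mitosis genes Prc1 (-0.40), Kif11 (-0.30) and Ccna2 (-0.30). By that rule, which leaves out clone-named genes, the largest differences were those of Nanp (1.82), S1pr2 (1.19), Hmgn5 (1.16), Zscan12 (1.14), Phospho2 (1.11) and Bmp4 (1.08) in the one direction, and of Ccn1 (-1.74), Jun (-1.43), Irs2 (-1.23), Zfp608 (-1.18), Irs1 (-1.12) and Phlda1 (-1.01) in the other. Between 8 h and 4 h the effect differed for Eif1a (0.63), Traf4 (0.53) and Pskh1 (0.52). Hmgn5 lost its call when any 1 of the compared arrays was left out (adjusted p = 0.0768 to 0.146), other than Mettl3 knockdown 0 h replicate 2 and scramble 8 h replicate 1. Zscan12 lost its call likewise (adjusted p = 0.0645 to 0.139), other than without scramble 8 h replicate 1.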

How the results depend on the processing

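With 2 arrays a group, the calls rest on the spread pooled over the time course. In the 8 h comparison both counts stayed within 1.5 times their values under all alternatives, with 2726 to 3080 higher and 2057 to 2223 lower features when an array was left out. Deviations of replicate 1 from the group means correlated between groups with either sign (r = -0.445 to 0.337 over 36 pairs of groups). They were over 0.1 in 12 pairs and under -0.1 in 12. Mettl3 knockdown at 8 h had r = 0.159 with scramble and r = -0.328 with Mettl14 knockdown at 8 h. With a replicate block 3459 features were higher and 2755 lower. That block goes by replicate number, so it does not cover a factor shared between unlike numbers, which was not tested. None of the called genes that the naming rule gives reversed its direction under an alternative, in any comparison. Uncalled genes, and genes in a comparison for which the rule does not give them, were not checked for this. Of 156 called genes named in the 8 h comparison, 17 lost their call under some alternative, 10 of them with only the compared arrays in the fit. The same held for 7 of the 12 genes that the rule gives in the comparison with 0 h, all with only the compared arrays. It also held for 3 of 3 in that with 4 h and 9 of 12 in that with Mettl14 knockdown, again with only the compared arrays. Other genes reported for these contrasts, such as Kif11, Ccna2 and Alkbh5 against 0 h, were not run under the alternatives. The effect at 8 h minus that at 0 h gave 181 higher and 71 lower features without the filter, 97 and 99 with the long-lived genes set to 1 median, 659 and 311 with 26 arrays, 45 and 9 with only the compared groups, and 244 lower with trend and robust priors. Leaving out an array gave 165 to 476 higher and 58 to 154 lower. The effect at 8 h minus that at 4 h gave 0 higher features without the filter, with that scaling or with only the compared groups, 1 with a replicate block or quantile normalization, 10 with a stricter filter, 48 with trend and robust priors (6 lower) and 56 with 26 arrays (8 lower). Leaving out an array gave 0 to 83 higher and 0 to 1 lower. Mettl3 against Mettl14 knockdown gave 393 higher and 370 lower features without the filter, 422 and 372 with array weights, 1 and 2 with only the compared groups, and 194 lower with the long-lived scaling. Leaving out an array gave 203 to 679 higher and 274 to 369 lower. The causes were not tested. Dim probe sets and the shared Mettl3 probe set limit what the signal shows.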

Other observations

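Of the 40 features called in opposite directions at 8 h and 0 h, the following were chosen after their values were seen. Taf5l, a subunit of histone acetyltransferase complexes, had 9.82 and 9.92 in Mettl3 knockdown and 9.28 and 9.19 in scramble at 8 h. Its effect was 0.63 at 8 h and -0.27 at 0 h, and the difference was 0.91 (adjusted p = 0.00029). Ppp1r15b, a regulatory subunit that guides dephosphorylation of the initiation factor eIF2 alpha, had effects of 0.43 at 8 h and -0.30 at 0 h (difference 0.73, adjusted p = 0.00143). Klhl21, an adaptor of a ubiquitin ligase, had 0.47 and -0.26 (difference 0.73, adjusted p = 0.00186), and Tcf15, a helix-loop-helix factor of the primed epiblast list, had 0.27 and -0.21 (difference 0.48, adjusted p = 0.0206). Sf3a2, a splicing factor, went the other way, with 10.98 and 10.84 in knockdown and 11.15 and 11.15 in scramble at 8 h, effects of -0.24 at 8 h and 0.20 at 0 h, and a difference of -0.44 (adjusted p = 0.00631). Each of these effects was under 1 on the log2 scale.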
